A study of Mus musculus with 40 samples.

Results

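The 9 genes described here encode transcription factors of 2 families, the interferon regulatory factors (Irf1, Irf2, Irf3, Irf5, Irf7, Irf8 and Irf9) and the signal transducers and activators of transcription (Stat2 and Stat3). They were taken from a list of gene names, drawn up with earlier results of these data known, and each matched 1 of the 55414 Ensembl gene rows of the count table. All 9 were among the 25210 genes tested. The RNA came from cultured cardiac fibroblasts of adult TAK1 fl/fl mice on C57BL/6J, used at passage 1, and was read by polyA RNA sequencing. TAK1, encoded by Map3k7, is a kinase that carries signals from the IL-1β, TNFα and TGFβ receptors to NF-κB and to the stress kinases. Cells of every group carried the floxed allele and received an adenovirus, with either LacZ (the control virus) or iCre (the virus that deletes the floxed exon), both from the CMV promoter, so that deletion took place in culture and in whichever cells took up the virus. They were then serum-starved and left without ligand (CTRL) or given bFGF at 20 ng/ml, TGFβ at 10 ng/ml, IL-1β at 15 ng/ml or TNFα at 10 ng/ml for 24 h, after growth in a medium that itself held 20 ng/ml bFGF. Each of the 10 groups of virus by ligand held 4 libraries, described in the study as biological replicates from male mice.

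Total counts per library ranged from 25360947 to 66160732, with a median of 36183962. No pair of libraries held identical counts. Map3k7 ranged from 144 to 251 CPM (read counts scaled to a common library size, with the trimmed mean of M-values) in the 20 LacZ libraries and from 122 to 160 CPM in the 20 iCre libraries, and was lower with iCre in 4 of 4 same-numbered pairs for every ligand. Since the count covers the whole gene and the floxed part is 1 exon, it checks the labels only in part. The summed CPM of 10 fibroblast markers was between 15351 and 69714 in each library. By contrast, 11 macrophage and leukocyte markers summed to between 19.4 and 199.6 CPM, and 4 dendritic and plasmacytoid markers to between 3.27 and 18.1 CPM, nearly all of it Zbtb46 (3.17 to 17.5 CPM, at 0 in no library), with Siglech at 0 in all 40 libraries. Over all libraries, 4 pericyte markers summed to between 71.9 and 1920 CPM, mostly Rgs5, and 4 cardiomyocyte markers to between 1.17 and 112 CPM. In CTRL the pericyte sum was 106 to 557 CPM in LacZ and 287 to 896 CPM in iCre libraries. In such bulk RNA, more cells of a type and more RNA per cell cannot be told apart.

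Interferon regulatory factors share a DNA-binding domain that reads GAAA repeats, the core of the interferon-stimulated response element (ISRE). STAT proteins are activated at cytokine receptors by Janus kinases and bind the gamma-activated site (GAS). IRF3 and IRF7 are switched on by innate sensors and start type I interferon transcription. STAT2 and IRF9 are the subunits of ISGF3, the complex that answers type I interferon, whereas IRF1 and IRF8 answer interferon γ and inflammatory signals, IRF2 binds the same sites as IRF1 and can oppose it, and IRF5 acts downstream of Toll-like receptors, mostly in myeloid cells. STAT3 carries signals of the IL-6 family through gp130. In fibroblasts these factors link cytokine exposure to antiviral, chemokine and acute-phase genes.

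To show what control sequence lies before these genes, promoter windows (250 bases before to 50 bases after the annotated start, RefSeq, GRCm38.p6) were searched on both strands for the ISRE letters (GAAANN followed by GAAA), the GAS letters TTCNNNGAA and the NF-κB consensus. All 9 genes matched, with 12 windows. Of all 32851 windows in the table, 3.44% held the ISRE letters, 8.30% the GAS letters and 4.51% the NF-κB consensus. In 4 of the 9 genes a window held at least 1 of these motifs, and those windows are printed in full, 5′ to 3′, with the motif letters in capitals. The Irf1 window (chr11:53769764-53770063, plus strand) held a GAS match starting at base -90 and an NF-κB match at base -13, counted from the start. That of Irf2 (chr8:46739495-46739794, plus strand) held an ISRE match at -241, a GAS match at -224 and an NF-κB match at -17. In Irf8 (chr8:120736108-120736407, plus strand) 2 GAS matches lay at -171 and -153, and in Stat2 (chr10:128270248-128270547, plus strand) an ISRE match on the reverse strand lay at -222. None of the matches overlapped another.
Irf1: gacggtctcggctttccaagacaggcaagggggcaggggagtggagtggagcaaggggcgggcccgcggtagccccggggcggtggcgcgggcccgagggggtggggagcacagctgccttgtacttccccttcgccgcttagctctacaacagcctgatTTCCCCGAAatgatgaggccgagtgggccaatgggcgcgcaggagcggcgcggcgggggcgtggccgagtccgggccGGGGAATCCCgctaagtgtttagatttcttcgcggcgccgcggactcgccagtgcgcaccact
Irf2: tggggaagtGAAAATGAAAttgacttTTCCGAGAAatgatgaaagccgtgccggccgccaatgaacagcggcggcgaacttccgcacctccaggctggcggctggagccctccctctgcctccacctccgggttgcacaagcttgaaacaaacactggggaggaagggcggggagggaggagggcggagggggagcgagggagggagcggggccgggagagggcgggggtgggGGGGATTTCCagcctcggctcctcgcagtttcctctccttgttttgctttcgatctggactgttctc
Irf8: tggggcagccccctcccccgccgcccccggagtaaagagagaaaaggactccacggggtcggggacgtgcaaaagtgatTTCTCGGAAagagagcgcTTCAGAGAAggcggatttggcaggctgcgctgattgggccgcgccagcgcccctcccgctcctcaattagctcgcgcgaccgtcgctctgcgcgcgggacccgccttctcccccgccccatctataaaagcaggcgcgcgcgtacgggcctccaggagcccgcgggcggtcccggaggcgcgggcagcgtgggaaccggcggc
Stat2: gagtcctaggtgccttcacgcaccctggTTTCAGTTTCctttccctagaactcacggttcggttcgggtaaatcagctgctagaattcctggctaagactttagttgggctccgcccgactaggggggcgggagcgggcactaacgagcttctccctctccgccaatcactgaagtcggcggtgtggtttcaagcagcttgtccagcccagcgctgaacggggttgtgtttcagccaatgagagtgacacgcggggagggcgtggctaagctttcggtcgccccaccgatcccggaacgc
The windows of Irf3, Irf5, Irf7, Irf9 and Stat3 held none of these letters, which says nothing of sites outside 300 bases or of other spellings.

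Per kilobase of exon, Stat3 had the highest mean level of the 9 genes in the LacZ CTRL group (38.7 CPM per kb), followed by Stat2 (33.8), Irf7 (32.7), Irf9 (16.2), Irf1 (12.01), Irf3 (10.2), Irf2 (4.42), Irf5 (2.04) and Irf8 (0.439). With the longest transcript in place of the union of exons the values were higher but their order was the same, led by Stat3 (61.0 CPM per kb) and Stat2 (45.5). The order held for the means only. In replicate 4, Irf7 (65.0 CPM per kb) and Stat2 (49.4) were above Stat3 (35.3), and in replicate 1 Irf7 (5.55) was below Irf9 (10.4), Irf1 (10.8) and Irf3 (10.9). The type I interferon arm (Stat2, Irf9 and Irf7) was thus expressed in these cells without added ligand, while Irf5 and Irf8 were rare. Irf8 was counted with 6 to 684 reads per library.

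**Figure D1:**
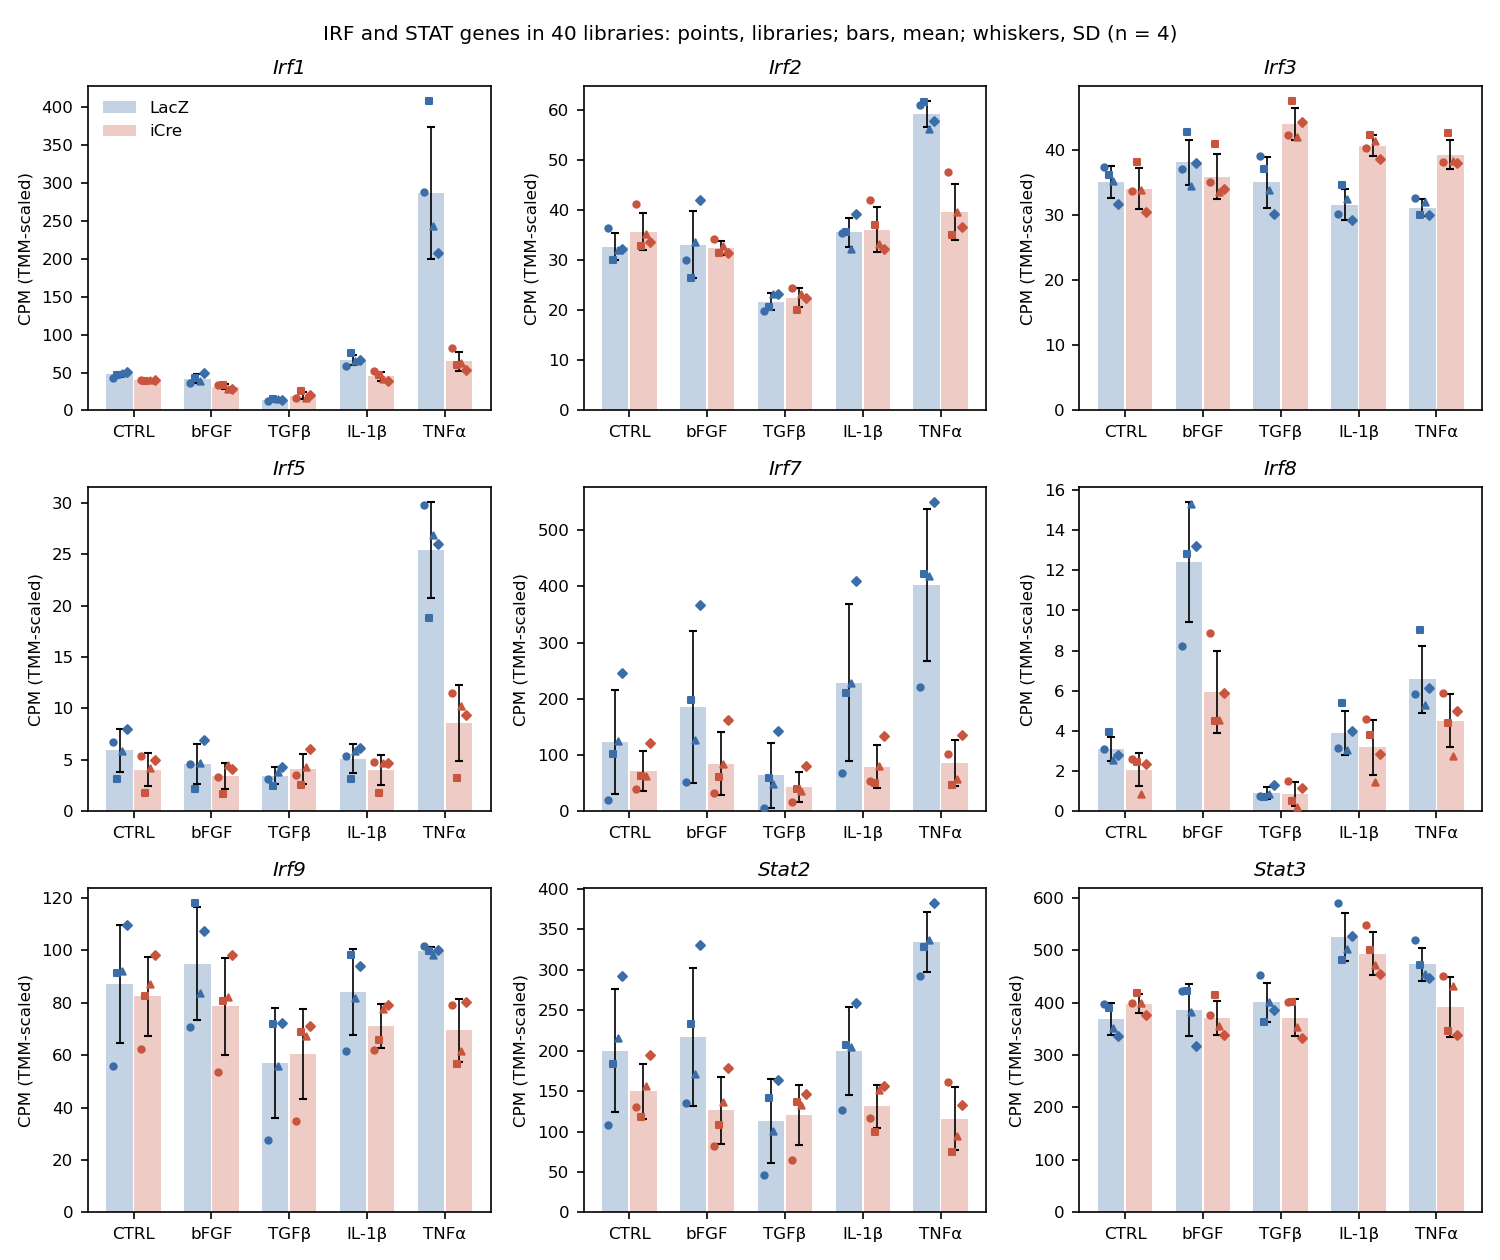
CPM (TMM-scaled) of the 9 genes, 1 panel per gene, by ligand on the x axis and virus by colour; each point is a library (circle, square, triangle and diamond for replicates 1, 2, 3 and 4), bars are means and whiskers SD (n = 4). With TNFα, the LacZ bars of Irf1 (mean 287 CPM) and Irf5 (mean 25.4 CPM) stand far above all other groups, and Irf8 is highest with bFGF.

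Libraries with the same replicate number deviated together. Irf7 was highest in replicate 4 in 10 of 10 groups and lowest in replicate 1 in 8 of 10. Without ligand, the 4 LacZ libraries (replicates 1 to 4) held 20.96, 101, 126 and 245 CPM of Irf7, an 11.7-fold range, and with TGFβ the range was 26.2-fold. Stat2 was lowest in replicate 1 in 7 of 10 groups and highest in replicate 4 in 9 of 10, and Irf9 was lowest in replicate 1 in 8 of 10. The summed CPM of 27 ISGF3 target genes took the same order, lowest in replicate 1 and highest in replicate 4 in 9 of 10 groups each. Irf5 departed differently, being lowest in replicate 2 in 10 of 10 groups, at a median of 0.462 times the median of the other libraries. Replicate 1 held the libraries numbered 31 to 40 and the others those numbered 51 to 80, so replicate 1 and its number range cannot be told apart. Because of this shared spread, a fit with the replicate number as a block (paired fit) is given wherever it changes a call of 1 of the 9 genes or moves the number of them called by over 1.5 times. For the gene lists further on it is given only in part.

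**Figure D2:**
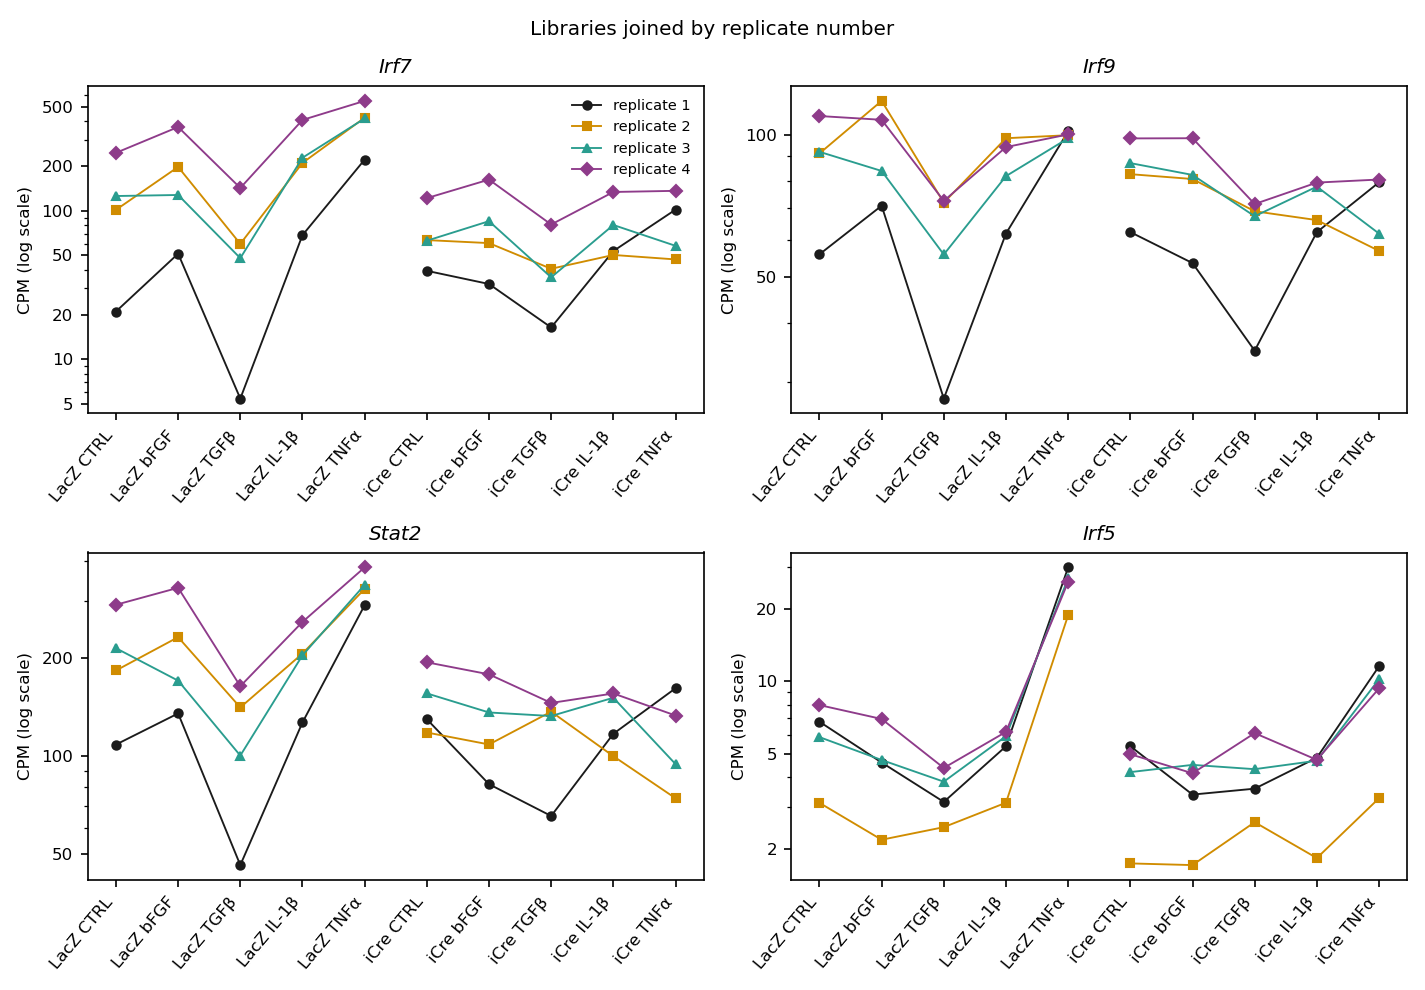
CPM on a log axis for Irf7, Irf9, Stat2 and Irf5 in the 10 groups, with the libraries of 1 replicate number joined by a line within each virus. Replicate 4 (diamonds) runs on top for Irf7 in 10 of 10 groups and replicate 2 (squares) at the bottom for Irf5 in 10 of 10 groups, and the 4 Irf9 values come together in LacZ cells with TNFα (98.3 to 102 CPM).

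Which of these genes answered each ligand in cells with TAK1 was asked by comparing each LacZ group with LacZ CTRL. TNFα raised 5 of 9 genes (Irf1, Irf2, Irf5, Irf8 and Stat3) and lowered none, against 21.2% of all genes called in either direction. IL-1β raised Irf1 and Stat3, 2 of 9 against 20.6% of all genes. TGFβ lowered Irf1, Irf2 and Irf8, 3 of 9 against 36.2% of all genes, so that share was near the background. bFGF raised Irf8 alone, 1 of 9 against 11.6% of all genes. With the replicate block, the count for TGFβ was 7 of 9, all lower, with Irf5, Irf7, Irf9 and Stat2 added, against 41.9% of all genes called in that fit. The block gave 6 for TNFα (Irf3 added, lower; 35.8% of all genes) and 3 for IL-1β (Irf7 added, higher; 33% of all genes), so the order of the ligands by count depended on the fit. Raw library sizes in place of TMM scaling moved the median of all genes by -0.40 (log2) for TGFβ, -0.22 for IL-1β and -0.14 for TNFα. For TGFβ they turned a split of 4383 higher and 4752 lower genes into 2221 and 8359, so fold changes here are relative to the bulk of genes. All ligand comparisons of 1 virus share the same CTRL libraries. Markers of other cells also moved with ligands. In LacZ cells, 4 cardiomyocyte markers summed to 17.3 to 112 CPM in CTRL, 3.43 to 14.8 with TGFβ, 1.17 to 2.63 with IL-1β and 2.62 to 7.70 with TNFα. The 4 pericyte markers summed to 106 to 557 CPM in CTRL and 647 to 1167 CPM with TGFβ (1 called higher and 2 lower). Their part in the ligand differences was not tested.

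In iCre cells, each ligand was compared with iCre CTRL. TNFα raised Irf1 and Irf8 (2 of 9; 26.6% of all genes called) and IL-1β raised Irf3 and Stat3 (2 of 9; 16.4%). TGFβ lowered Irf1 and Irf2 and raised Irf3 (3 of 9; 36.9%). With bFGF, edgeR's quasi-likelihood test at the main settings called none of the 9 (2.32% of all genes called), though 2 had an unadjusted p under 0.05. DESeq2 called 2. edgeR called 1, lower, with the filterByExpr filter (5.15% of all genes) and without replicate 2 (12.8%). It called 1, higher, with no filter (2.28%) and in the fit of all 40 libraries (6.02%). With the block, TNFα had 4 genes called (35.7% of all genes), IL-1β 6 (33.6%), TGFβ 6 (41.1%) and bFGF 2 (14.7%). The count over all genes for bFGF rested on the libraries used, with 585 genes in the 4 replicates, 3, 0 and 0 without replicate 1, 3 or 4, and 3217 without replicate 2.

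The direct effect of iCre was then measured at each ligand. With TNFα, 7 of the 9 genes differed between iCre and LacZ cells, 6 of them lower (Irf1, Irf2, Irf5, Irf7, Irf9 and Stat2) and Irf3 higher, against 27% of all genes called. The count was 3 without replicate 3 and 6 without any other 1 replicate. With IL-1β, Irf1 was lower and Irf3 higher (2 of 9; 16.2%). With the main settings, no gene of the 9 passed edgeR's test without ligand (0.182% of all genes called), with bFGF (0.00793%) or with TGFβ (9%). At an unadjusted p under 0.05 these comparisons had 1, 3 and 2 of the 9 genes, and DESeq2 called 0, 1 and 0. With the block they had 3 lower (13.7% of all genes called), 3 lower (11.9%) and 2 higher (19.3%). With TGFβ, edgeR also called 2 of the 9 in the fit of all 40 libraries (14.2% of all genes) and 1 with raw library sizes (9.54%). For IL-1β the block added Stat2, lower (28.2%), and for TNFα it called the same number, 7 (31.5%). Markers of other cells moved with iCre too. With TNFα, 4 pericyte markers summed to 71.9 to 368 CPM in LacZ and 302 to 1156 CPM in iCre libraries (2 of 4 called higher), 11 macrophage and leukocyte markers to 47.3 to 188 and 38.2 to 134 CPM (1 of 11 called, higher), and 10 fibroblast markers to 25795 to 34599 and 15351 to 23387 CPM (2 called higher and 5 lower). Their part in the differences was not tested. Finally, the interaction term asks whether the response to a ligand differed between the viruses. It passed for Irf1, Irf2 and Irf3 with TNFα (3 of 9; 16% of all genes called), for Irf3 with IL-1β (1 of 9; 7.93%), for Irf1 with TGFβ (1 of 9; 4.74%) and for none with bFGF (0% of all genes by edgeR, with 732 under an unadjusted p of 0.05 and none called by DESeq2; no member was under that p). With the block, Irf5 and Stat3 were added for TNFα (24.6% of all genes called). With a GC correction added to the block, iCre was lower than LacZ for 8 of 9 genes with TNFα (all but Irf3; 27.4% of all genes called) and for 5 with IL-1β (Irf1, Irf5, Irf9, Stat2 and Stat3; 21.6%). In that fit Stat3 was lower with TGFβ in iCre cells (40.6%), Irf1 and Stat3 passed the interaction with IL-1β (11.8%), and Stat2, beside Irf1, Irf2, Irf5 and Stat3, passed that with TNFα (20.8%).

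**Figure D3:**
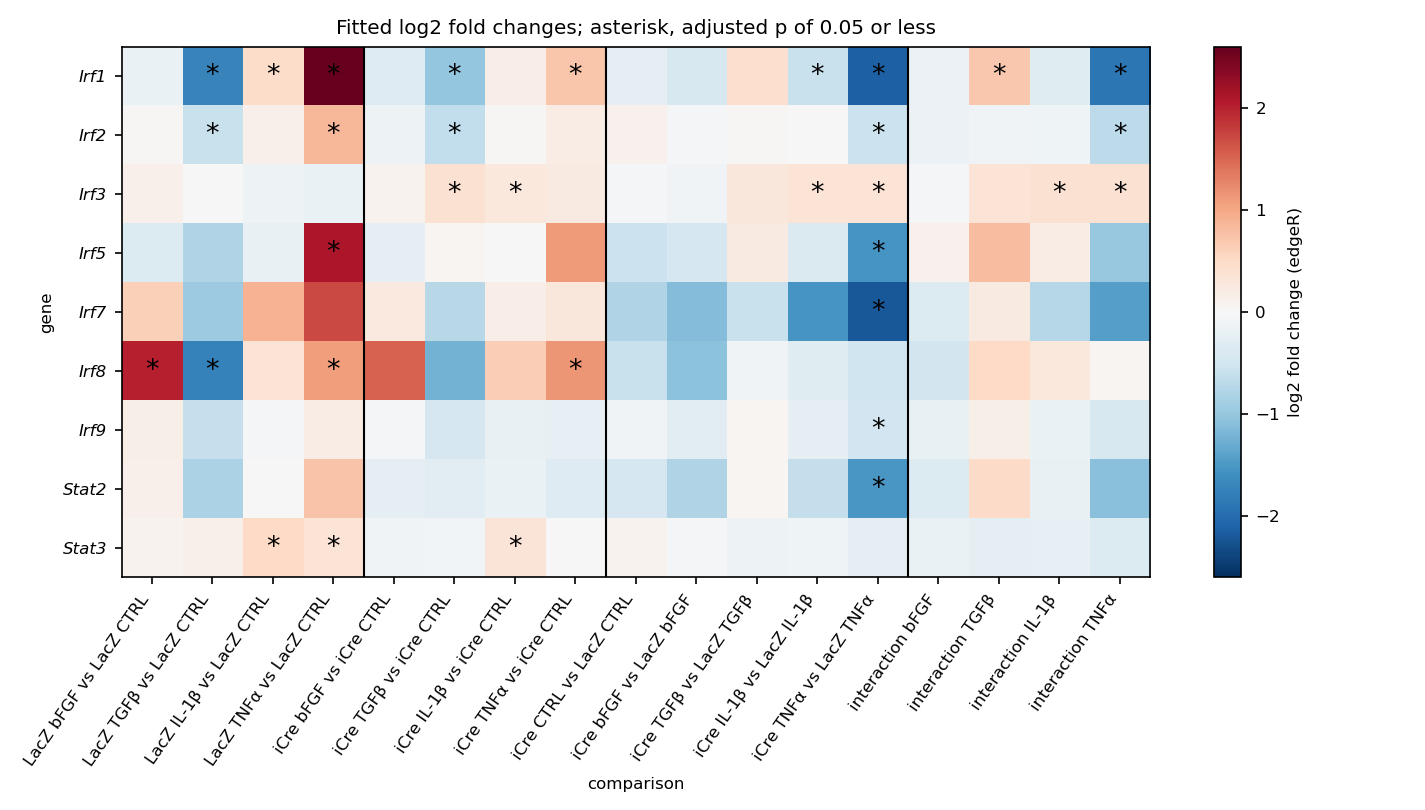
Fitted log2 fold changes (colour) of the 9 genes (rows) in the 17 comparisons (columns; edgeR quasi-likelihood test, no block), grouped by vertical lines into ligand effects in LacZ, ligand effects in iCre, iCre against LacZ, and interactions. Asterisks mark adjusted p-values of 0.05 or less over 25210 genes, of which the column for iCre against LacZ with TNFα holds 7.

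Irf1 (chr11:53770014-53778374, plus strand), the factor that drives many interferon γ and TNFα genes, rose most with TNFα of the 9 genes in LacZ cells and much less with iCre. Without ligand the LacZ libraries held 42.9, 47.3, 49.8 and 51.0 CPM of Irf1 (replicates 1 to 4, here and throughout). With TNFα they held 288, 407, 244 and 208 CPM. No library of the first group reached the second, and the rise was 6.02-fold (log2 fold change 2.59 ± 0.20, adjusted p = 4.94e-05). In iCre cells, TNFα gave 81.7, 60.3, 62.8 and 53.7 CPM, against 40.7, 38.8, 40.7 and 40.1 CPM without ligand. This smaller rise, 1.65-fold, also passed the test (log2 fold change 0.72 ± 0.12, adjusted p = 0.00133) and again the groups did not overlap. With TNFα present, Irf1 was lower in iCre than in LacZ cells in all 4 pairs, at ratios of 0.284, 0.148, 0.258 and 0.258 (log2 fold change -2.13 ± 0.22, adjusted p = 2.86e-04). The 2 responses to TNFα differed by -1.87 ± 0.23 on the log2 scale (adjusted p = 6.92e-05), the largest interaction of the 9 genes.

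IL-1β moved Irf1 less. LacZ libraries held 58.9, 75.9, 64.7 and 66.0 CPM, above all 4 CTRL libraries (log2 fold change 0.49 ± 0.094, adjusted p = 0.00358). In iCre cells with IL-1β they held 52.1, 46.2, 41.4 and 39.3 CPM, which overlapped iCre CTRL (log2 fold change 0.18 ± 0.10, adjusted p = 0.259; 0.0465 with the block and 0.970 with GC correction) and lay below every LacZ library with IL-1β (log2 fold change -0.58 ± 0.10, adjusted p = 0.00297). The difference between the 2 responses was not called (interaction -0.32 ± 0.13, adjusted p = 0.177; 0.00737 with block and GC correction). The LacZ rise with IL-1β was lost when raw library sizes replaced the TMM scaling (adjusted p = 0.13).

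TGFβ moved Irf1 the other way. LacZ libraries fell to 12.4, 15.7, 15.0 and 13.6 CPM (log2 fold change -1.74 ± 0.10, adjusted p = 4.62e-07), the lowest group mean of the 10 for this gene. In iCre cells they held 16.2, 25.1, 16.9 and 20.3 CPM (log2 fold change -1.01 ± 0.13, adjusted p = 6.03e-05). All 4 iCre values were above all 4 LacZ values, but that direct comparison missed the threshold (adjusted p = 0.0956; 0.00634 with the replicate block and 0.129 with the block and GC correction). The interaction passed: the fall was smaller with iCre by 0.70 ± 0.17 (adjusted p = 0.0183), a call lost without replicate 3 or without replicate 4 (highest adjusted p 0.264). bFGF left a mean of 41.7 ± 5.93 CPM in the LacZ group and of 31.4 ± 3.10 CPM in the iCre group (SD, n = 4). edgeR with the main settings called neither against its CTRL (adjusted p = 0.358 and 0.0755). The iCre value was lower at adjusted p = 0.00702 with the block and 0.0034 by DESeq2. In the order of the 10 group means, 5 of the 9 neighbouring pairs did not overlap, among them LacZ TNFα over LacZ IL-1β at the top and iCre TGFβ over LacZ TGFβ at the bottom. Without ligand, iCre libraries were all below LacZ libraries (log2 fold change -0.26 ± 0.074, adjusted p = 0.146), and the block called it (adjusted p = 0.00830; 0.0110 with GC correction). iCre against LacZ with bFGF had adjusted p = 0.335 without the block, 0.0128 with it and 0.00563 with GC correction.

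Irf2 (chr8:46739732-46847458, plus strand), which binds the same sites as Irf1 and can oppose it, rose with TNFα and fell with TGFβ as Irf1 did, at a smaller scale. The LacZ libraries held 36.4, 30.0, 32.0 and 32.2 CPM without ligand and 60.8, 61.5, 56.2 and 57.7 CPM with TNFα. The groups did not overlap and the rise was 1.81-fold (log2 fold change 0.86 ± 0.080, adjusted p = 3.99e-05). In iCre cells TNFα gave 47.5, 35.0, 39.6 and 36.5 CPM, which overlapped iCre CTRL (41.1, 32.7, 35.1 and 33.6 CPM; log2 fold change 0.19 ± 0.12, adjusted p = 0.272). Every iCre library with TNFα was below every LacZ library with TNFα (log2 fold change -0.55 ± 0.10, adjusted p = 0.00267), and the responses differed by -0.68 ± 0.14 (adjusted p = 0.00317). Of the 12 alternative settings, none removed any of these 3 calls. TGFβ lowered Irf2 in both viruses, to 21.7 ± 1.76 CPM in LacZ (log2 fold change -0.57 ± 0.10, adjusted p = 6.42e-04) and 22.5 ± 1.84 CPM in iCre cells (log2 fold change -0.64 ± 0.10, adjusted p = 3.95e-04), with no overlap with CTRL in either. The difference between these falls was -0.10 ± 0.14, with a 95% interval of -0.36 to 0.17. IL-1β left 35.5 ± 2.86 and 36.0 ± 4.46 CPM and bFGF 33.1 ± 6.69 and 32.4 ± 1.37 CPM in LacZ and iCre cells, none of them called.

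Stat2 (chr10:128270559-128292849, plus strand), Irf9 (chr14:55603571-55610030, plus strand) and Irf7 (chr7:141262706-141266481, minus strand) belong to the type I interferon arm, with STAT2 and IRF9 as subunits of ISGF3 and IRF7 as both its target and a factor that amplifies interferon transcription. With TNFα, each of these 3 genes was lower in iCre than in LacZ cells in 4 of 4 pairs, as were Irf1, Irf2, Irf5 and Stat3. The share of all genes with this pattern was not counted. For Irf7, LacZ libraries with TNFα held 221, 423, 418 and 549 CPM and iCre libraries 102, 47.0, 58.0 and 136 CPM. These did not overlap, and iCre was lower at ratios of 0.460, 0.111, 0.139 and 0.248 within pairs (log2 fold change -2.21 ± 0.42, adjusted p = 0.00714). Leaving out replicate 3 removed this call (adjusted p = 0.0601). For Stat2, LacZ libraries held 292, 328, 337 and 382 CPM and iCre libraries 162, 74.1, 94.4 and 133 CPM (log2 fold change -1.51 ± 0.23, adjusted p = 0.00150), again without overlap, and all 12 alternatives kept the call. The difference was smallest in replicate 1 for both genes, where iCre held 0.460 of the LacZ level of Irf7 and 0.554 of that of Stat2.

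Irf9 showed the same direction at a smaller size. In LacZ cells with TNFα it held 102, 99.8, 98.3 and 100.2 CPM, the narrowest of its 10 groups, whereas the CTRL libraries ranged over 55.8 to 109.6 CPM. The iCre libraries with TNFα held 79.3, 56.8, 61.8 and 80.4 CPM, all below the LacZ libraries (log2 fold change -0.50 ± 0.12, adjusted p = 0.00780). This call was lost without replicate 3 and when all 40 libraries were fitted together (highest adjusted p over the alternatives 0.103).

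For TNFα against CTRL in LacZ cells none of these 3 genes was called. Irf7 was higher in 4 of 4 pairs, at ratios of 10.5, 4.17, 3.33 and 2.24, but overlapped CTRL and missed the threshold (log2 fold change 1.71 ± 0.70, adjusted p = 0.149; 0.0549 with the block). The ratio was largest in replicate 1, where CTRL was lowest. Stat2 was higher in 4 of 4 pairs (2.69, 1.79, 1.57 and 1.30; log2 fold change 0.74 ± 0.27, adjusted p = 0.0973; 0.0759 with the block). For Irf9 the ratios were 1.82, 1.09, 1.07 and 0.914 (log2 fold change 0.20 ± 0.17, adjusted p = 0.462). DESeq2 called 7 of the 9 genes in this comparison, with Irf7 (adjusted p = 0.0448) and Stat2 (0.0216) added. In iCre cells the pairs split: Irf7 with TNFα stood at 2.58, 0.741, 0.924 and 1.12 times CTRL and Stat2 at 1.25, 0.627, 0.605 and 0.685 times, so replicate 1 went up and replicates 2 and 3 went down in both. The interactions with TNFα, -1.43 ± 0.85 for Irf7, -1.09 ± 0.40 for Stat2 and -0.42 ± 0.25 for Irf9, were not called (adjusted p = 0.311, 0.0856 and 0.305; with the block 0.154, 0.0546 and 0.242). Block and GC correction together (adjusted p = 0.0347) and DESeq2 (0.0299) called that of Stat2.

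With TGFβ all 3 genes were lower in 4 of 4 LacZ pairs. Irf7 stood at 0.259, 0.590, 0.382 and 0.580 times CTRL, Irf9 at 0.495, 0.787, 0.606 and 0.661 times and Stat2 at 0.425, 0.769, 0.466 and 0.561 times. In each gene replicate 1 had the lowest ratio. edgeR without the block called none of them (adjusted p = 0.521, 0.202 and 0.208), although Irf9 passed in the fit of all 40 libraries (0.0429) and without replicate 1 (0.0132), and the replicate block called all 3 (adjusted p = 0.0175, 5.23e-04 and 0.00322). In iCre cells with TGFβ, the block called Irf7 (-0.80, adjusted p = 5.71e-05) and Irf9 (-0.46, adjusted p = 9.94e-04) but not Stat2 (-0.34, adjusted p = 0.303). With IL-1β, Irf7 was higher in 4 of 4 LacZ pairs, at ratios of 3.27, 2.07, 1.81 and 1.67, with adjusted p = 0.503 without the block, 0.0250 with it and 0.0259 with GC correction. Stat2 and Irf9 with IL-1β lay at 199 ± 54.5 and 84.0 ± 16.4 CPM in LacZ cells, with log2 fold changes of 0.0044 ± 0.33 and -0.043 ± 0.22. With iCre they stood at 131 ± 27.1 and 71.2 ± 8.45 CPM. Stat2 was lower than iCre CTRL in 4 of 4 pairs, at ratios of 0.901, 0.845, 0.969 and 0.801. Irf9 stood at 0.9995, 0.799, 0.892 and 0.806 times iCre CTRL, so replicate 1 hardly differed. By edgeR, the adjusted p for Stat2 and Irf9 was 0.0346 and 0.0210 with the block, and 0.614 and 0.393 without.

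With the other ligands, Irf7 and Stat2 were lower with iCre in 4 of 4 pairs with IL-1β and with bFGF. With IL-1β the iCre to LacZ ratios were 0.782, 0.240, 0.353 and 0.327 for Irf7 (adjusted p = 0.141) and 0.923, 0.482, 0.740 and 0.602 for Stat2 (adjusted p = 0.0988; 0.0379 with the block). DESeq2 called both with IL-1β (adjusted p = 0.00712 for Irf7 and 0.0383 for Stat2), and Stat2 also passed without replicate 1 (0.0436). Irf9 with IL-1β had adjusted p = 0.269 without block or GC correction and 0.0116 with both. With bFGF, Stat2 was lower in 4 of 4 pairs (0.605, 0.467, 0.798 and 0.541) and had adjusted p = 0.479 without the block, 0.00663 with it and 0.00862 with GC correction. For Irf9 with bFGF these were 0.653, 0.0369 and 0.0758. Irf7 with bFGF was also lower in 4 of 4 pairs (0.625, 0.307, 0.666 and 0.443; adjusted p = 0.613, and 0.115 with the block). Without ligand, 3 of 4 pairs were lower for each of the 3 genes. The 95% intervals of the log2 difference came from the unpaired fit, which keeps the shared replicate spread, and were wide. They ran from -2.21 to 0.63 for Irf7, -1.03 to 0.17 for Stat2 and -0.51 to 0.33 for Irf9. Replicate 1 was the exception each time, with Irf7 at 1.88 times its LacZ partner. With TGFβ the ratios ran from 0.567 to 3.01 for Irf7. In the order of the 10 group means, all 9 neighbouring pairs overlapped for each of these 3 genes. Irf9 shares 123 exon bases with Rnf31 on the same strand and Irf7 45 with Phrf1 on the opposite one. Of the other members, Irf1 shares 135 exon bases with Gm17334, Irf3 88 with Bcl2l12 and Stat3 72 with Stat5a, all on the opposite strand.

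Irf5 (chr6:29526625-29541871, plus strand), a factor downstream of Toll-like receptors, was rare without ligand and rose with TNFα. LacZ CTRL libraries held 6.79, 3.12, 5.86 and 7.96 CPM, and LacZ libraries with TNFα 29.8, 18.8, 26.9 and 25.9 CPM. The groups were far apart, a 4.28-fold rise (log2 fold change 2.10 ± 0.29, adjusted p = 0.00165). In iCre cells TNFα gave 11.5, 3.26, 10.2 and 9.34 CPM against 5.37, 1.74, 4.19 and 4.97 CPM. Here replicate 2 overlapped CTRL, and the rise of 1.11 ± 0.45 had adjusted p = 0.105 without the block and 8.48e-05 with it, and also passed by DESeq2 (0.0444), in the fit of all 40 libraries (0.0307) and without replicate 2 (0.00127). With TNFα, iCre libraries were all below LacZ libraries, at ratios of 0.387, 0.173, 0.380 and 0.360 (log2 fold change -1.54 ± 0.37, adjusted p = 0.0165), a call lost without replicate 1, 3 or 4 (highest adjusted p 0.101). The interaction of -0.995 ± 0.57 had adjusted p = 0.288 without the block, 0.00327 with it, 4.70e-04 with GC correction and 0.00665 without replicate 2. No other ligand moved Irf5 past edgeR's test without the block: LacZ means were 4.61 ± 1.95 CPM with bFGF, 3.45 ± 0.819 with TGFβ and 5.14 ± 1.38 with IL-1β. In iCre cells they were 3.43 ± 1.23, 4.14 ± 1.48 and 4.005 ± 1.45 CPM. The block added a lower level with TGFβ in LacZ cells (-0.72, adjusted p = 0.00502), which also passed by DESeq2 (0.0420), with raw library sizes (0.00709), with no filter (0.0495) and without replicate 2 (0.00251), and a lower level with iCre in CTRL (-0.58, adjusted p = 0.00865), and GC correction a lower level with iCre and IL-1β (adjusted p = 0.00612). Irf5 shares 411 exon bases with Tnpo3 on the opposite strand, a gene with 159794 counts over all libraries against 9771 for Irf5, and whether counting used strand is not given in the sources used here.

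Irf8 (chr8:120736358-120756694, plus strand), a factor best known for myeloid development, was the one member that bFGF raised. LacZ libraries held 3.08, 3.93, 2.56 and 2.82 CPM without ligand and 8.22, 12.8, 15.3 and 13.2 CPM with bFGF, a 4.06-fold rise without overlap (log2 fold change 2.02 ± 0.21, adjusted p = 3.62e-04). TNFα also raised it, to 5.83, 9.02, 5.31 and 6.14 CPM (log2 fold change 1.09 ± 0.21, adjusted p = 0.00353). TGFβ lowered it to 0.745, 0.706, 0.855 and 1.33 CPM (log2 fold change -1.76 ± 0.27, adjusted p = 3.78e-04). The highest and lowest group means for LacZ cells were thus those of 2 growth factors. IL-1β left 3.91 ± 1.08 CPM (adjusted p = 0.319).

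In iCre cells the Irf8 values lay on the same sides of CTRL. bFGF gave 8.87, 4.49, 4.55 and 5.87 CPM against 2.62, 2.48, 0.877 and 2.36 CPM for CTRL, without overlap, but missed the threshold (log2 fold change 1.53 ± 0.36, adjusted p = 0.0556; 3.89e-04 with the block and 0.00244 by DESeq2). TNFα gave 5.90, 4.401, 2.74 and 4.99 CPM (log2 fold change 1.15 ± 0.36, adjusted p = 0.0355), a call lost with raw library sizes and without replicate 1, 2 or 4 (highest adjusted p 0.139). With TGFβ the libraries held 1.52, 0.518, 0.225 and 1.19 CPM, with adjusted p = 0.103 without the block, 0.00296 with it, 0.0267 with raw library sizes and 0.0108 in the fit of all 40 libraries. IL-1β gave 3.18 ± 1.35 CPM (adjusted p = 0.351 without the block, 0.00514 with it and 0.0533 with GC correction). edgeR without the block did not call iCre against LacZ at any ligand, and DESeq2 called it with bFGF (adjusted p = 0.0242). With the block it was called, lower, in CTRL (-0.67, adjusted p = 0.0497), and with block and GC correction also with TNFα (adjusted p = 0.0305). A readthrough gene model, Gm20388, runs over Irf8 on the same strand. With bFGF, where 3 of 4 pairs were lower with iCre, the ratios were 1.08, 0.3504, 0.297 and 0.445 (log2 fold change -1.06 ± 0.26, adjusted p = 0.245), and the interaction with TNFα was 0.052 ± 0.42 with a 95% interval of -0.78 to 0.88. The 11 macrophage and leukocyte markers summed to 114 CPM (60.5 to 186) in LacZ CTRL, 86.9 CPM (44.7 to 133.6) with bFGF, 102 CPM (47.3 to 188) with TNFα and 61.3 CPM (28.5 to 113) with TGFβ. Of these 11, none was called with bFGF or TNFα and 1 was called, lower, with TGFβ. The dendritic and plasmacytoid markers summed to 8.19 CPM (6.48 to 11.4) in LacZ CTRL, 6.19 CPM (3.27 to 9.81) with bFGF, 6.79 CPM (5.55 to 7.92) with TGFβ and 13.8 CPM (12.1 to 15.6) with TNFα, the last without overlap with CTRL and with 2 of 3 tested markers called higher. The part of either list in the Irf8 level was not tested.

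Irf3 (chr7:44997648-45002848, plus strand), the constitutive factor that innate sensors activate by phosphorylation, had the narrowest range of the 9 genes as a ratio of highest to lowest library. It was the only one called higher in iCre than in LacZ cells with TNFα. All 40 libraries held between 29.3 and 47.5 CPM. With TNFα, LacZ libraries held 32.6, 30.1, 32.0 and 30.0 CPM and iCre libraries 38.1, 42.6, 38.4 and 38.0 CPM (log2 fold change 0.35 ± 0.079, adjusted p = 0.00687). With IL-1β they held 30.2, 34.7, 32.5 and 29.3 CPM and 40.4, 42.4, 41.4 and 38.7 CPM (log2 fold change 0.35 ± 0.081, adjusted p = 0.0122). The groups did not overlap in either case. With TGFβ the iCre mean was the highest of the 10 groups, 44.0 ± 2.52 CPM, above iCre CTRL at 34.1 ± 3.19 CPM (log2 fold change 0.39 ± 0.089, adjusted p = 0.00413), while LacZ cells with TGFβ stayed at 35.1 ± 3.93 CPM. In iCre cells IL-1β also raised it (log2 fold change 0.27 ± 0.084, adjusted p = 0.0449). Interactions passed with IL-1β (0.40 ± 0.11, adjusted p = 0.0335) and with TNFα (0.40 ± 0.11, adjusted p = 0.0162). The Irf3 interaction with TGFβ was not called in this fit, so its responses to TGFβ in the 2 viruses were not shown to differ.

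These Irf3 differences were small and depended on how GC content was handled, and their calls depended also on the libraries used. iCre was higher than LacZ in 4 of 4 pairs with TNFα, at ratios of 1.17, 1.42, 1.20 and 1.27. With IL-1β the ratios were 1.34, 1.22, 1.27 and 1.32. For iCre against LacZ, the call with TNFα was lost without replicate 2 or 3 (adjusted p = 0.0563 and 0.0603) and that with IL-1β without replicate 1, 3 or 4 (0.0644, 0.0998 and 0.0527). The rise with IL-1β in iCre cells was lost under 7 of 12 alternatives, among them RLE scaling, raw library sizes, no filter and leaving out replicate 1, 3 or 4 (0.201, 0.207 and 0.145). The interaction with TNFα was lost without any 1 replicate number (0.0766 to 0.145), and that with IL-1β with RLE scaling and without replicate 1, 3 or 4 (0.189, 0.233 and 0.109). Irf3 had the highest GC content of the 9 genes (56.7%; Irf2 the lowest, 46.4%). With the replicate block and a GC correction, all 6 Irf3 calls were lost, with adjusted p = 0.435 for iCre against LacZ with TNFα, 0.256 with IL-1β, 0.146 for TGFβ in iCre cells, 0.618 for IL-1β in iCre cells, and 0.213 and 0.234 for the interactions. By contrast, the calls of Irf1, Irf2, Irf5, Irf7, Irf9 and Stat2 in iCre against LacZ cells with TNFα held in that fit. The direction of Irf3 with TGFβ in iCre cells also depended on scaling, since raw library sizes gave -0.0575. Irf3 was also higher in iCre cells with TNFα than in iCre CTRL (adjusted p = 0.0739 without the block, 0.0173 with, 0.615 after GC correction) and in iCre than in LacZ cells with TGFβ (0.0757, 0.0116 and 0.850). In LacZ cells Irf3 with TNFα was lower than CTRL in 4 of 4 pairs, with adjusted p = 0.132 without the block, 0.0354 with it, 0.0970 after GC correction and 0.0103 with raw library sizes.

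**Figure D4:**
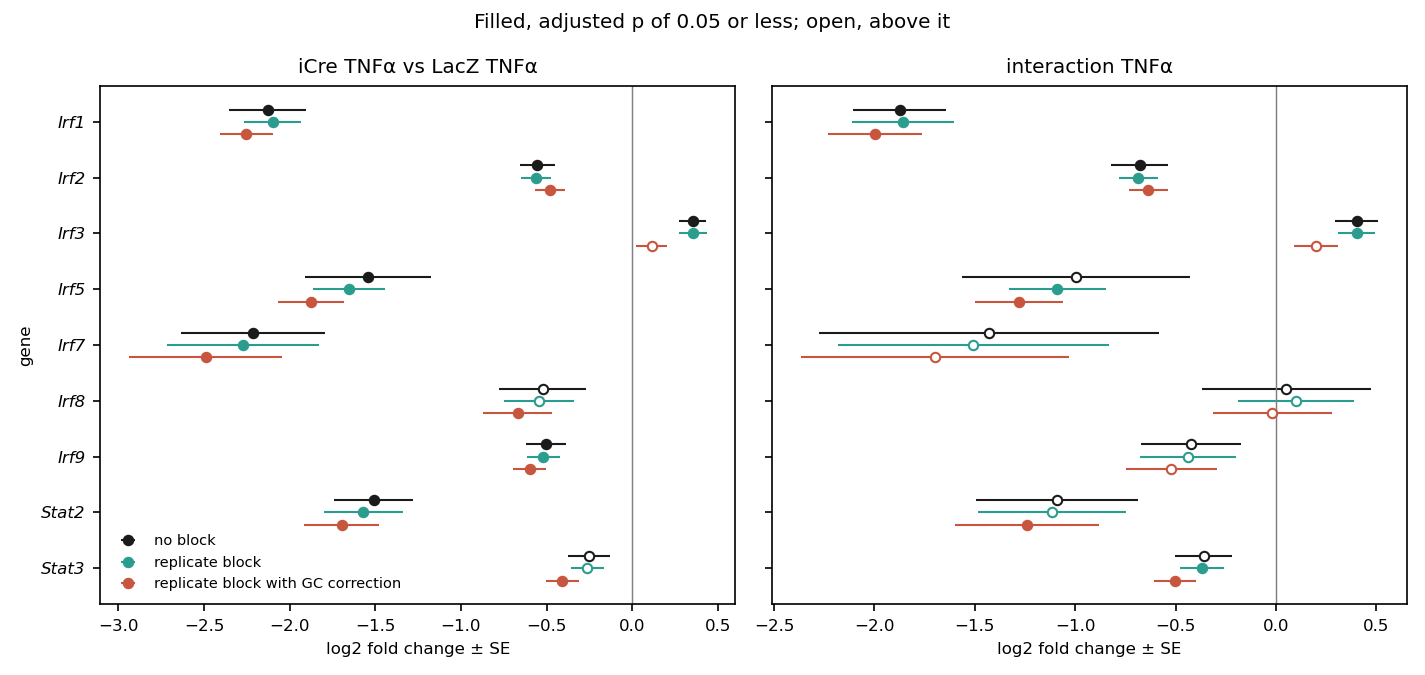
Log2 fold change ± SE of the 9 genes for iCre against LacZ with TNFα (left) and for the interaction with TNFα (right), from the fit without a block (black), with the replicate block (green) and with the block and a GC correction (red); filled points have an adjusted p of 0.05 or less. Irf1 and Irf2 are filled in all 3 fits of both panels, and Irf3 is open after GC correction.

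Stat3 (chr11:100885098-100939540, minus strand), which carries IL-6 family signals, had the highest mean CPM per kb of the 9 genes in LacZ CTRL. It ranged from 318 to 589 CPM over all libraries and rose with both inflammatory cytokines in LacZ cells. CTRL libraries held 397, 390.0, 351 and 336 CPM. With IL-1β they held 589, 482, 503 and 527 CPM, a 1.44-fold rise (log2 fold change 0.52 ± 0.10, adjusted p = 0.00392). With TNFα they held 519, 471, 455 and 447 CPM (log2 fold change 0.36 ± 0.089, adjusted p = 0.0148). No treated library reached down to CTRL in either case. The IL-1β call was lost without replicate 4 (adjusted p = 0.0503) and the TNFα call with raw library sizes and without replicate 3 or 4 (highest adjusted p 0.103). In iCre cells IL-1β raised it to 547, 501, 472 and 454 CPM from 399.9, 418, 399 and 375 CPM (log2 fold change 0.33 ± 0.093, adjusted p = 0.0312), and that call was lost under 5 of 12 alternatives, among them leaving out replicate 1, 3 or 4 (highest adjusted p 0.212). TNFα left 391 ± 57.6 CPM in iCre cells (log2 fold change 0.010 ± 0.12, adjusted p = 0.981). The responses to TNFα differed by -0.36 ± 0.14, with adjusted p = 0.103 without the block, 0.0186 with it, 0.00178 with GC correction and 0.0262 by DESeq2. edgeR called no difference between iCre and LacZ cells at any ligand without the block or with it, although the fit of all 40 libraries did with TNFα (adjusted p = 0.0343), with unpaired 95% intervals of -0.33 to 0.11 with IL-1β and -0.49 to -0.011 with TNFα. With block and GC correction Stat3 was lower with iCre for both ligands (-0.24, adjusted p = 0.0334, and -0.41, adjusted p = 0.00984). In the same fit it was lower with TGFβ in iCre cells (adjusted p = 0.0365), its rise with IL-1β in iCre cells was lost (adjusted p = 0.0736), and the interaction with IL-1β passed (adjusted p = 0.0143). The bFGF and TGFβ means lay between 371 and 400.5 CPM in both viruses.

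Genes around these factors were then counted by list, with each list drawn up when earlier results of these data were known. These counts read against all genes called in the same comparisons, 21.2% for TNFα and 20.6% for IL-1β in LacZ cells, and 27% and 16.2% for iCre against LacZ with each. The interferons themselves were nearly silent: of 10 interferon genes listed, 1 had the 10 counts needed for a test, and it was called in none of the 17 comparisons. Among 14 receptors and Janus kinases of the interferon and gp130 pathways, TNFα raised 12 and lowered 1 in LacZ cells, and IL-1β raised 9 and lowered 2. Jak2, a Janus kinase, rose from 75.3 ± 11.7 to 359.6 ± 81.8 CPM with TNFα (log2 fold change 2.26, adjusted p = 1.60e-05) and from 75.3 ± 11.7 to 306 ± 33.4 CPM with IL-1β. Ifngr2, a chain of the interferon γ receptor, rose from 82.8 ± 12.4 to 241 ± 25.4 CPM with TNFα, and Ifnar2, a chain of the type I interferon receptor, from 74.6 ± 6.14 to 237 ± 18.3 CPM with IL-1β. With iCre, 11 of the 14 were lower than in LacZ cells with TNFα and 6 with IL-1β, and none was higher, whereas the replicate block gave 8 lower and 4 higher with IL-1β. Jak2 with TNFα went from 359.6 ± 81.8 to 75.6 ± 10.4 CPM (log2 fold change -2.23, adjusted p = 2.39e-05) and Il6st, which encodes gp130, from 3091 ± 264 to 869 ± 344 CPM (log2 fold change -1.81, adjusted p = 5.26e-04).

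Of 8 IL-6 family ligands, IL-1β raised 4 in LacZ cells, with Il6 going from 2.44 ± 0.578 to 318 ± 111 CPM (log2 fold change 7.04, adjusted p = 2.40e-05) and Lif from 3.53 ± 1.11 to 44.0 ± 6.47 CPM. TNFα raised 2, among them Il6, from 2.44 ± 0.578 to 18.5 ± 1.48 CPM. With iCre and IL-1β, Il6 was lower (318 ± 111 to 57.0 ± 40.7 CPM, log2 fold change -2.50, adjusted p = 0.0329) and Clcf1 higher (log2 fold change 1.11, adjusted p = 0.00286). The block gave 2 higher and 1 lower there, beside 28.2% of all genes called. With iCre and TNFα, 3 were higher and none lower, namely Il11 (1.07 ± 0.301 to 35.1 ± 25.7 CPM; log2 fold change 5.05, adjusted p = 0.00386), Clcf1 (log2 fold change 2.41, adjusted p = 1.94e-04) and Lif (log2 fold change 2.38, adjusted p = 0.0125).

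Of 15 sensors and kinases upstream of IRF3 and IRF7, TNFα raised 10 and lowered 1 in LacZ cells and IL-1β raised 8. Tlr3, the endosomal receptor of double-stranded RNA, rose from 21.3 ± 7.65 to 80.4 ± 19.3 CPM with TNFα (log2 fold change 1.92, adjusted p = 0.00377), and Ifih1, a cytosolic RNA sensor, from 63.0 ± 26.3 to 186 ± 39.1 CPM (log2 fold change 1.57, adjusted p = 0.0168). With iCre, 10 of the 15 were lower with TNFα and 7 with IL-1β, and 1 was higher with each. The block gave 10 and 9 lower and 2 higher with each, beside 31.5% and 28.2% of all genes called. Tlr3 in TNFα-treated cells went from 80.4 ± 19.3 to 14.5 ± 5.45 CPM (log2 fold change -2.45, adjusted p = 8.37e-04) and Ifih1 from 186 ± 39.1 to 34.6 ± 14.3 CPM (log2 fold change -2.41, adjusted p = 0.00152). Of 20 feedback inhibitors, TNFα raised 2 and lowered 1 in LacZ cells (4 and 3 with the block) and IL-1β raised 5 and lowered 1 (8 and 4 with the block), beside 35.8% and 33% of all genes with the block. Ptpn2, a phosphatase acting on Janus kinases and STATs, rose with both (log2 fold change 0.94, adjusted p = 8.73e-05 with TNFα; log2 fold change 1.64, adjusted p = 2.56e-06 with IL-1β). With iCre and TNFα 6 inhibitors were higher and 5 lower, with Usp18, an inhibitor of the type I interferon receptor, at log2 fold change -1.42, adjusted p = 0.0305. Of 6 other IRF and STAT genes listed, 2 rose with TNFα and 2 with IL-1β in LacZ cells (Stat5a and Stat6 each time), and Stat5a was lower with iCre and TNFα (log2 fold change -0.43, adjusted p = 0.0396) but higher with iCre and IL-1β (log2 fold change 0.36, adjusted p = 0.0168).

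Genes listed as targets of the factors were counted in the same way, and whether those factors drove them here was not tested. Of 21 IRF1 and gamma-activated targets, TNFα raised 19 in LacZ cells (median log2 fold change 2.49, against -0.0828 over all genes), and 20 were lower with iCre and TNFα (median -2.64; all genes 0). Interactions with TNFα passed for 17 of the 21 (16% of all genes). Cxcl10, a T-cell chemokine, rose from 5.83 ± 4.78 to 313 ± 190.0 CPM (log2 fold change 5.76, adjusted p = 0.0153), and Gbp5, a guanylate-binding protein, went from 406 ± 91.1 to 7.59 ± 7.28 CPM with iCre and TNFα (log2 fold change -5.71, adjusted p = 0.00160). In LacZ cells IL-1β raised 5 of the 21 (16 with the replicate block) and TGFβ lowered 10 (17 with the block; 36.2% and 41.9% of all genes called in either direction), and with iCre and IL-1β 10 were lower. Of 27 ISGF3 targets, TNFα raised 9 in LacZ cells (15 with the replicate block), 25 were lower with iCre and TNFα (21 with the block), and the interaction passed for 5 (9 with the block), beside 16% of all genes (24.6% with the block). Ifit1, an antiviral RNA-binding protein, went from 707 ± 173 to 74.9 ± 48.2 CPM (log2 fold change -3.22, adjusted p = 0.00329) and Rsad2, the antiviral enzyme viperin, from 117 ± 57.8 to 11.8 ± 6.33 CPM (log2 fold change -3.29, adjusted p = 0.00612). IL-1β moved none of the 27 in the unpaired test in LacZ cells and 14, all higher, with the block, and TGFβ lowered 2 without and 21 with it, beside 36.2% and 41.9% of all genes called. With iCre and IL-1β, 5 of the 27 were lower (10 with the block).

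All 12 genes listed as STAT3 targets rose with IL-1β in LacZ cells and in iCre cells, against 20.6% and 16.4% of all genes called. Since the list was drawn up with earlier results of these data known, this share is no independent test. The acute-phase gene Saa3 went from 3.81 ± 2.66 to 4475 ± 479 CPM in LacZ cells (log2 fold change 10.23, adjusted p = 6.49e-05) and Lcn2 from 3.82 ± 1.88 to 2995 ± 833 CPM. TNFα raised 9 of the 12 in LacZ and 11 in iCre cells (26.6% of all genes called in the latter). Compared directly, iCre cells with TNFα held 4 higher and 4 lower (median 0.077) and with IL-1β 2 higher and 5 lower. Saa3 with iCre and TNFα went from 1278 ± 684 to 14.2 ± 8.17 CPM (log2 fold change -6.46, adjusted p = 5.21e-04), and Pim1, a serine/threonine kinase, from 84.1 ± 31.3 to 30.1 ± 2.74 CPM (log2 fold change -1.46, adjusted p = 0.00217).

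**Figure D5:**
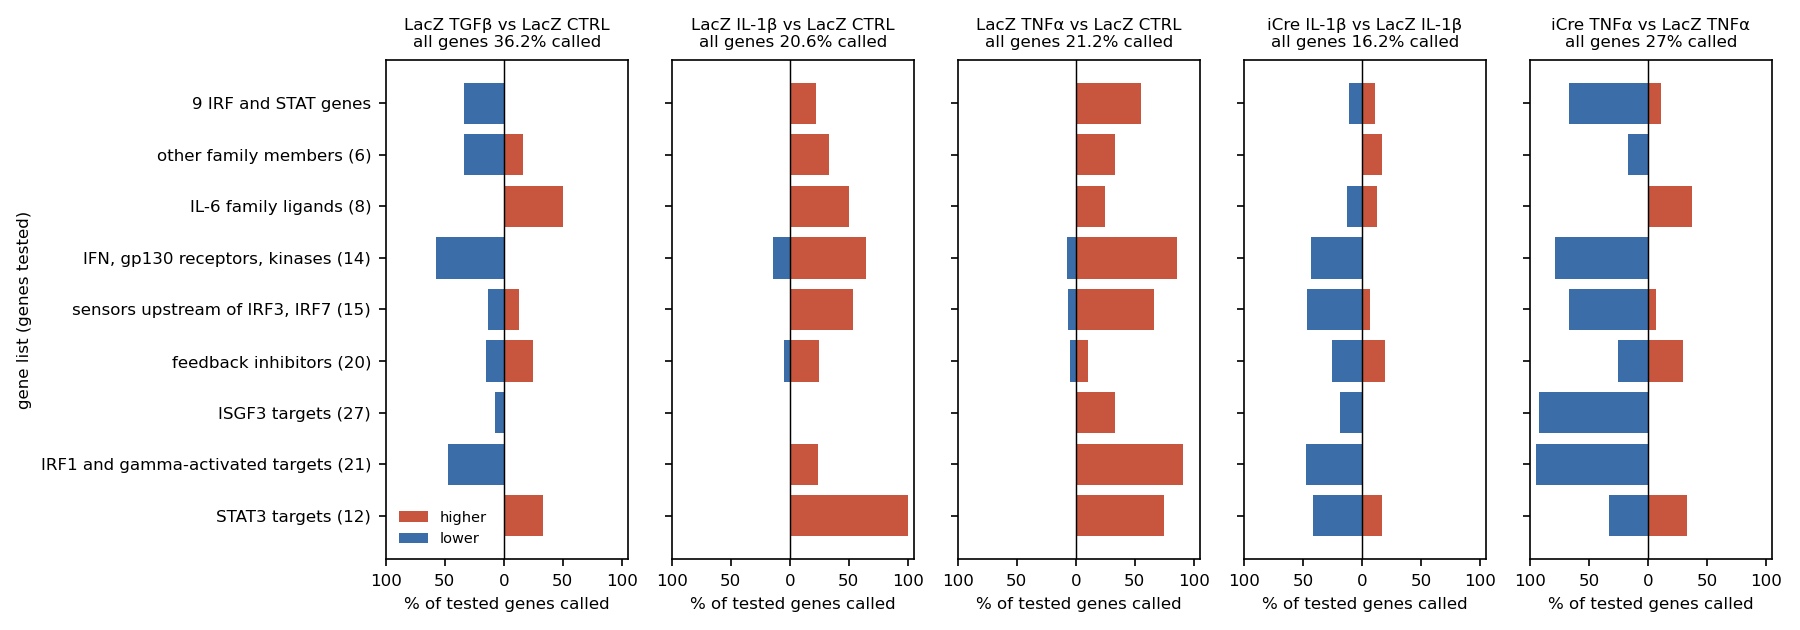
Share of tested genes (x axis, %) called higher (red, right) or lower (blue, left) in each list (rows; genes tested in parentheses) for 5 comparisons (panels; edgeR without a block), with the share of all 25210 genes called above each panel. With iCre and TNFα, 20 of 21 IRF1 and gamma-activated targets and 25 of 27 ISGF3 targets lie to the left, while the 12 STAT3 targets split 4 and 4.

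The genes whose pattern over the 10 group means was nearest to each member, among 12299 other protein-coding genes at 1 CPM or more, are given as a description, with r on log2(CPM + 1) over 10 group means and over 40 libraries that share ligand and number. Irf1 ran closest to the immunoproteasome genes Psmb10 (r = 0.993 over group means and 0.975 over libraries) and Psmb8 (r = 0.990 over group means and 0.924 over libraries) and to Psme1 (r = 0.990 over group means and 0.950 over libraries), a proteasome activator. Irf7 ran closest to Phf11b (r = 0.988 over group means and 0.854 over libraries), Dhx58 (r = 0.979 over group means and 0.974 over libraries) and Oas3 (r = 0.977 over group means and 0.913 over libraries), the last 2 being antiviral genes. Irf9 was nearest to Sp100, Mndal and Ifit3 (r over group means 0.975, 0.974 and 0.963). Irf5 was nearest to Stap2, Ubd and Scube3 (0.974, 0.971 and 0.962), and Irf2 to Ninl, Exoc3l4 and Mboat1 (0.990, 0.988 and 0.976), where Mboat1 had 0.518 over libraries. Irf8 was nearest to Acer2, Arhgdib and Sav1 (0.969, 0.964 and 0.956), and Stat3 to Ackr3, Nectin2 and Secisbp2l (0.953, 0.948 and 0.947). Sp110 and Olfr56 were among the nearest to Stat2 (0.959 and 0.958), and Csnk1g2, Mum1 and Znrd1 were nearest to Irf3 (0.972, 0.957 and 0.954). Over libraries, in the same gene order, r was lower: 0.832, 0.851 and 0.875 for Irf9 and 0.901, 0.820 and 0.844 for Irf5. It was 0.838, 0.771 and 0.719 for Irf8, 0.582, 0.594 and 0.744 for Stat3, 0.821 and 0.880 for Stat2, and 0.718, 0.899 and 0.606 for Irf3.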

How the data were processed

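RNA of 40 libraries (10 groups of 4) was sequenced. The deposited file holds raw read counts per Ensembl gene, which the authors made by FastQC (0.10.1 in the submitters' processing notes, where the study's methods name another version), alignment with STAR to mm10 and counting with HTSeq 0.10.0, without pooling. The annotation release and strand setting are not given in the sources used here, and labels and methods name different library kits. Labels do not say whether replicates were separate cultures, so p-values measure the spread between these libraries. Each column was matched to a sample by its label, and 0 columns were left without one.

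Genes with at least 10 counts in total (25210 of 55414 rows) were tested with edgeR 4.0.16 (R 4.3.3; TMM scaling, robust quasi-likelihood test, 2-sided) on the 8 libraries of each pair of groups or the 16 of each interaction. P-values were adjusted over all 25210 genes by Benjamini-Hochberg, with a threshold of 0.05. Errors of fold changes are standard errors and those of levels are SD. The 95% intervals are 1.96 standard errors wide on each side and come from the fit without a block. Levels are CPM, and exon lengths and GC content came from GENCODE M21, which holds 52133 of the rows and 99.6% of the counts. These were the main settings. DESeq2 1.42.0, other scalings and filters, a fit of all 40 libraries, a replicate block (with or without GC correction) and leaving out each replicate number were the alternatives.

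Replicate numbers, given in the labels, were checked for pairing: over 13090 genes, deviations from group means correlated between same-numbered libraries (median r 0.552, 179 of 180 pairs over 0.1, and all pairs of the 13 comparisons), with a median of -0.201 between different numbers. The numbers therefore pair the libraries. In simulated counts of the IL-1β comparison, 61 of 100 genes changed by 1 on the log2 scale and 100 of 100 changed by 2 were called. There were 7 false calls among the unchanged genes. For the IL-1β interaction, 25 and 98 were called, with 3 false calls. The simulation gave every gene the same dispersion, had no replicate effect and changed only well-counted genes. These rates therefore do not carry over to genes with a wide spread between replicates, such as Irf7.

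All 9 genes are described. Of each list, at most the 3 genes with the largest called change and a mean of 1 CPM or more in either group are named, for IL-1β and TNFα in LacZ cells and for iCre against LacZ with each, and likeness genes are the 3 with the highest r. The genes and lists were chosen with earlier results of these data known. A further gene of the original list is not reported here. Text and tables were handled in Python 3.11.15 (pandas 2.3.3, numpy 2.4.6).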

Additional observations from a re-analysis of the deposited data

Results flagged for a closer look

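In 5 of 90 groups of 4 libraries, 1 library stood apart from the other 3 by Dixon's criterion, which chance meets in about 1 of 20 groups. Irf3 in iCre cells with TNFα was highest in replicate 2 (42.6 CPM; others 38.0 to 38.4 CPM). Irf5 in iCre cells with IL-1β was lowest in replicate 2 (1.84 CPM; others 4.67 to 4.81 CPM), the number in which it was lowest in 10 of 10 groups. Irf8 in iCre CTRL was lowest in replicate 3 (0.877 CPM; others 2.36 to 2.62 CPM). In iCre cells with TGFβ, replicate 1 was lowest for both Irf9 (34.9 CPM; others 67.2 to 71.3 CPM) and Stat2 (65.3 CPM; others 133 to 146 CPM), and both genes were lowest in replicate 1 in most groups.

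The response to a ligand differed between the viruses in 5 tests of the interaction, all by edgeR's quasi-likelihood test over all genes. With TNFα the log2 difference (iCre minus LacZ response) was -1.87 ± 0.23 for Irf1 (adjusted p = 6.92e-05), -0.68 ± 0.14 for Irf2 (adjusted p = 0.00317) and 0.40 ± 0.11 for Irf3 (adjusted p = 0.0162). With IL-1β it was 0.40 ± 0.11 for Irf3 (adjusted p = 0.0335) and with TGFβ 0.70 ± 0.17 for Irf1 (adjusted p = 0.0183). The Irf3 call with TNFα was lost without any 1 replicate number, that with IL-1β with RLE scaling and without replicate 1, 3 or 4, and both with GC correction added to the paired fit. The Irf1 call with TGFβ was lost without replicate 3 or 4, and the Irf1 and Irf2 calls with TNFα under none of 12 alternatives.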

How the results depend on the processing

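Of 153 results (9 genes in 17 comparisons, 32 of them called), between 116 (replicate block with GC correction) and 152 (filterByExpr filter) kept their direction and their side of the threshold under each of 12 alternatives. With the replicate block, 28 more were called and none was lost. With GC correction added, 30 were gained and 7 lost. With raw library sizes 7 were gained, 5 lost and 3 turned: Irf3 with TGFβ to -0.40 in LacZ and -0.0575 in iCre cells, and Stat3 with TGFβ in LacZ cells to -0.27.

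Numbers of the 9 genes called changed by over 1.5 times as follows. The paired fit with the replicate block gave 7 for TGFβ in LacZ cells (3 without), 2 for bFGF (0), 6 for TGFβ (3), 6 for IL-1β (2) and 4 for TNFα (2) in iCre cells, 3 for iCre against LacZ in CTRL (0), 3 with bFGF (0) and 2 with TGFβ (0), and 5 for the interaction with TNFα (3). With block and GC correction these were 7 for TGFβ in LacZ cells, 2 for bFGF and 6 for TGFβ in iCre cells, 3, 2 and 5 for iCre against LacZ in CTRL, with bFGF and with IL-1β (2 without), and 2 and 5 for the interactions with IL-1β (1) and TNFα. Raw library sizes gave 6 for TGFβ in LacZ cells, 5, 0 and 1 for TGFβ, IL-1β and TNFα in iCre cells, and 1 for iCre against LacZ with TGFβ. DESeq2 gave 2 for bFGF in iCre cells, 1 and 4 for iCre against LacZ with bFGF and IL-1β, and 5 for the interaction with TNFα. RLE scaling gave 1 for IL-1β in iCre cells and 0 for the interaction with IL-1β. The filterByExpr filter and no filter each gave 1 for bFGF in iCre cells, and no filter 1 for IL-1β there. A fit of all 40 libraries gave 1 for bFGF in iCre cells, 2 for iCre against LacZ with TGFβ and 2 for the interaction with TGFβ (1). The cause was not tested.

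Without 1 replicate number, counts ranged over 1 to 1 (bFGF), 3 to 4 (TGFβ), 1 to 2 (IL-1β) and 4 to 5 (TNFα) in LacZ cells, 0 to 1, 3 to 4, 0 to 2 and 1 to 2 in iCre cells, 0 to 0 in CTRL, with bFGF and with TGFβ, 1 to 2 with IL-1β and 3 to 6 with TNFα for iCre against LacZ, and 0 to 0, 0 to 1, 0 to 1 and 2 to 3 for the interactions in the same ligand order.

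Counts over all genes moved more. iCre against LacZ in CTRL had 46 called genes, 1058 by DESeq2, 82 with the filterByExpr filter, 113 with no filter, 429 in the fit of all 40 libraries, 3448 with the block and 3528 with GC correction. With bFGF the same counts were 2, 359, 0, 5, 466, 3001 and 3056. bFGF in iCre cells had 585 genes, 1696 by DESeq2, 1518 in the fit of all 40 libraries, 3707 with the block and 3587 with GC correction. The block, without and with GC correction, moved bFGF in LacZ cells from 2928 to 6706 and 6764, IL-1β from 5188 to 8331 and 8329, TNFα from 5341 to 9027 and 9045, and IL-1β in iCre cells from 4146 to 8461 and 7244. iCre against LacZ with TGFβ went from 2268 to 3433 (DESeq2), 3582 (all 40 libraries) and 4855 (block), and with IL-1β from 4082 to 7112 (block). Interactions went from 1195 to 1888 (DESeq2), 2096 (block) and 778 (block and GC correction) with TGFβ, from 1998 to 4132 (block) with IL-1β and from 4035 to 6208 (block) with TNFα. Without 1 replicate number, called genes ranged over 494 to 4615 (bFGF), 2446 to 5919 (IL-1β) and 2667 to 5901 (TNFα) in LacZ cells, 0 to 3217, 1968 to 4529 and 3645 to 6286 in iCre cells, 0 to 829 in CTRL, 0 to 413 with bFGF, 644 to 3218 with TGFβ, 1708 to 4151 with IL-1β and 3281 to 6758 with TNFα for iCre against LacZ, and 384 to 1455, 697 to 1813 and 1446 to 3881 for the interactions with TGFβ, IL-1β and TNFα.

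Depth limits Irf8 most, with 6 to 684 counts per library. Irf7 had 197 to 3757 counts in LacZ cells with TGFβ, where its level ranged 26.2-fold.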
